A study of Sus scrofa with 24 samples.

Results

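Neurons use voltage-gated sodium channels to fire action potentials and voltage-gated calcium channels to release transmitter, set firing patterns and signal to the nucleus. A sodium channel is 1 large pore-forming alpha subunit with small beta subunits that set its gating and its place in the membrane. A calcium channel is built on an alpha1 subunit, with a cytoplasmic beta subunit and an extracellular alpha2delta subunit that bring it to the surface, while most brain members of the gamma family serve as partners of AMPA-type glutamate receptors. The genes of these channels described here were all rows of the hippocampal count files whose pig symbol started with CACNA, CACNB or CACNG, or with SCN and a digit, without the epithelial sodium channel genes. This gave 37 of the 38882 listed genes, namely 9 calcium alpha1, 4 alpha2delta, 4 calcium beta, 7 gamma, 9 sodium alpha and 4 sodium beta genes. CACNA1H, a T-type alpha1 gene, had no row under its symbol. SCN2A and CACNG8 had no entry in the name table matched on gene number and were not analysed here.

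The tissue was hippocampus collected at 14 days from 24 full-term crossbred piglets of PIC lines, on formula from 2 days of age and in 4 groups of 6. AGA CON and SGA CON piglets, of appropriate and of small birth weight for gestational age, received a control formula whose fat was triglyceride oil. AGA HF and SGA HF piglets received a hydrolyzed fat formula, in which free fatty acids, a monoacylglycerol, lecithin and cholesterol took the place of part of the oil. Each replicate number on 1 diet was a littermate pair, with 1 SGA and 1 AGA piglet of the same sex. There were 12 such pairs, called litters here, 6 on each diet, in 2 cohorts. Whether any pairs shared a dam was not stated. Whole hippocampus holds many cell types, and fewer cells of a type cannot be told apart from less RNA per cell. Libraries held 6017336 to 9284355 counted reads, with a median of 7346072. The hippocampal excitatory markers CAMK2A, at 2750 to 3820 CPM (reads scaled to a common library size), and SLC17A7, at 1580 to 4960 CPM, were present in every library.

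A pair of AGA libraries stood apart in their neuronal and glial markers. AGA CON replicate 2 and AGA HF replicate 4 had summed levels of 8 neuron markers of 4070 and 4860 CPM, against 6490 to 7920 CPM in the other 22 libraries. Their 6 astrocyte markers summed to 12700 and 12300 CPM, against 7680 to 10800 CPM elsewhere, and their 7 microglia markers to 239 and 217 CPM, against 73.6 to 187 CPM. Their 4 thalamus and habenula markers summed to 76.8 and 66.6 CPM, against 36.3 to 65.9 CPM. The part of these differences in the channel results was not tested. The main size results of the channel genes are given with and without the litters of these libraries. Marker and partner results are given with all litters only. SGA CON replicate 6 stood apart at the other end of the channel levels. Of the 31 channel genes tested, 11 were highest in that library, 9 were lowest in AGA CON replicate 2 and 7 were lowest in AGA HF replicate 4. Among all 16326 genes tested, 12.9%, 12% and 5.76% had their extreme there.

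Channel genes spanned more than 3 orders of magnitude in level, read as RPKM (CPM per kilobase of exon), a scale that allows for the counted length. The paper selected polyadenylated RNA and attributes the average RNA quality number of its samples to pre-spliced RNA. Any effect of RNA quality or of this selection on the levels of long genes was not tested. The most abundant gene was CACNG7, an AMPA receptor partner of the gamma family, at a mean of 378 RPKM, above 98.7% of tested genes. It made up 66.1% of the summed RPKM of the 7 gamma genes matched, which leave out CACNG8, and 61.9% to 70.3% in single libraries. CACNG3, another AMPA receptor partner, followed at 118 RPKM and CACNG4, of the same kind, at 49.1 RPKM. The cytoplasmic calcium beta subunits CACNB3 and CACNB1 had 97.4 and 67.9 RPKM. The sodium beta subunit SCN2B, which is disulfide-linked to its alpha subunit, had 75 RPKM. Each of these was above every pore-forming gene tested in RPKM. In CPM, CACNG4 at 167 lay below the pore gene CACNA1E at 184, and the others stayed above it.

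**Figure D1:**
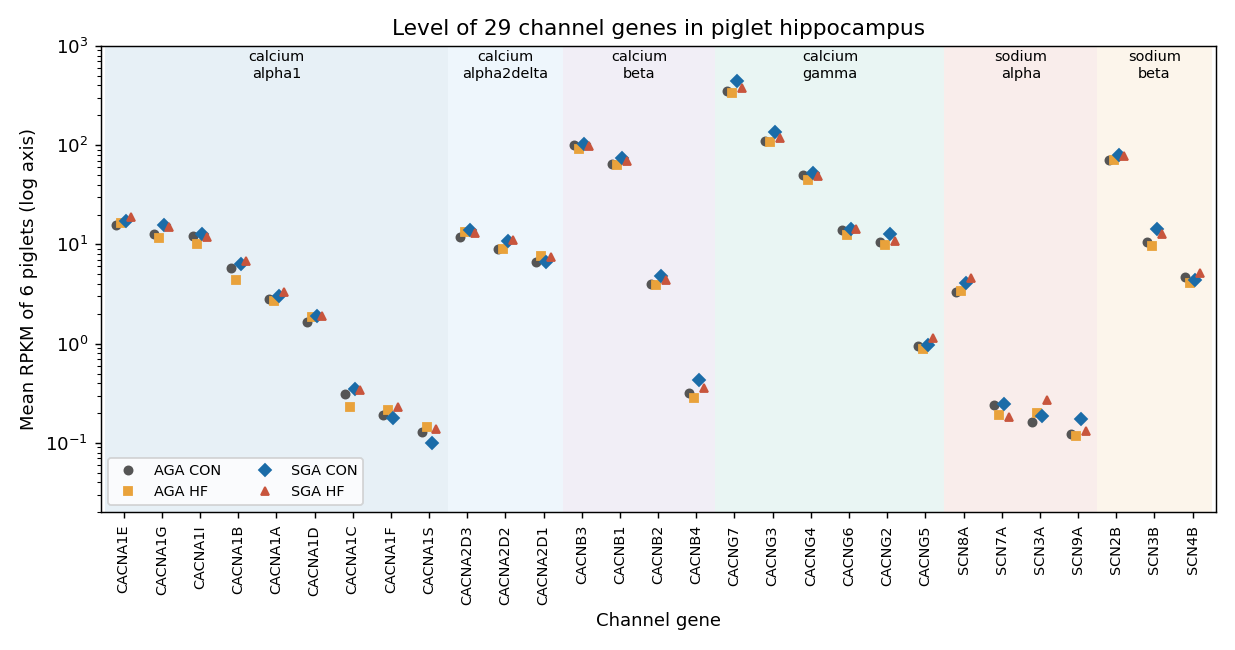
Mean RPKM of 29 tested channel genes (x axis, grouped by subunit family) in the 4 groups of 6 piglets, on a logarithmic y axis. CACNG7 lay highest at 378 RPKM over all libraries, and all sodium alpha genes lay below 5 RPKM in every group.

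Among calcium pores, the R-type gene CACNA1E led at 17.2 RPKM, which was 31.9% of the sum of the 9 alpha1 genes matched, without CACNA1H. The T-type genes CACNA1G and CACNA1I, whose channels open near rest and shape burst firing, followed at 13.8 and 11.7 RPKM. The presynaptic N-type gene CACNA1B had 5.86 RPKM and the P/Q-type gene CACNA1A 2.96 RPKM. The model of CACNA1B used in counting had 11 exon intervals and 927 bases on an unplaced scaffold, so its level per length rested on part of the gene. Of the L-type genes, which couple firing to gene expression, CACNA1D had 1.83 RPKM and CACNA1C 0.309 RPKM. The retinal CACNA1F and the skeletal muscle CACNA1S stayed at 0.204 and 0.128 RPKM. The alpha2delta genes lay close together in RPKM, with CACNA2D3 at 13.2, CACNA2D2 at 10 and CACNA2D1 at 7.06 RPKM. Their counted models had 1693, 5647 and 8344 bases in the same order, and 20, 40 and 41 exon intervals. In CPM they had 22.3, 56.5 and 58.9, the reverse order, so their ranking depended on these model lengths.

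Sodium pores were low. SCN8A, the channel of axon initial segments and nodes of Ranvier, had 3.87 RPKM and made up 79.7% of the sodium alpha sum, ranging from 69.1% to 87.6% across libraries. SCN7A, a sodium-sensing relative, had 0.217 RPKM, the fetal channel SCN3A 0.205 RPKM and the peripheral SCN9A 0.137 RPKM. SCN1A, the channel of fast-spiking interneurons, had 16 reads over all libraries and none in 12 of them. Its counted model had only 5 exon intervals spanning 3832 bases, so this count does not give the level of the gene. The SCN3A model was also short, with 17 exon intervals and 2903 bases against 29 and 7232 for SCN8A. SCN3A had 1 to 10 reads a library, so its level and share are uncertain too. Since SCN2A was not analysed here, these shares describe only the 9 sodium alpha genes matched.

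Of the 37 genes, 31 reached 1 CPM in at least 3 libraries and were tested. The other 6 were CACNA2D4, the muscle gene CACNG1, SCN1A, the muscle gene SCN4A and the sensory neuron genes SCN10A and SCN11A. A count of 3 reads, the limit under which a gene cannot be told from absent, was 0.323 to 0.499 CPM. SCN10A and SCN11A had 2 reads each in all 24 libraries, CACNA2D4 had 4, CACNG1 had 18 and SCN4A had 90.

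The levels of the leading genes of each family overlapped between groups. The lowest, median and highest CACNA1E levels were 122, 172 and 203 CPM in AGA CON, 127, 190 and 194 CPM in AGA HF, 165, 183 and 204 CPM in SGA CON and 183, 194 and 235 CPM in SGA HF. The pair of low values belonged to AGA CON replicate 2 and AGA HF replicate 4. CACNA2D3 had group means of 20.4 ± 3.6, 22.9 ± 4.86, 23.9 ± 3.77 and 22.1 ± 2.86 CPM (SD, n = 6) in the same order of groups. CACNA2D2 had 51.1 ± 7.47, 51.3 ± 13.9, 60.9 ± 13.6 and 62.7 ± 6.44 CPM (SD, n = 6). CACNB3 had 294 ± 59.8, 267 ± 30.1, 300 ± 27.3 and 286 ± 29.2 CPM (SD, n = 6). All these ranges overlapped.

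SCN8A ran from 15.9 to 38.2 CPM in AGA CON, from 13.8 to 41 CPM in AGA HF, from 17 to 44.4 CPM in SGA CON and from 23.8 to 48.8 CPM in SGA HF. The 4 ranges overlapped widely. SCN2B had medians of 355, 351, 370 and 371 CPM, and its lowest values, 224 CPM in AGA CON and 212 CPM in AGA HF, again came from the same 2 libraries. The lowest SGA value of SCN2B was 331 CPM. CACNG3 ran from 140 to 349, from 191 to 343, from 265 to 578 and from 237 to 335 CPM, and the 578 CPM was SGA CON replicate 6.

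The genes that varied most between libraries were sparse ones. CACNA1C, with a standard deviation of 0.73 in log2 CPM over all 24 libraries, had medians of 1.88, 1.45, 2.15 and 1.72 CPM in the 4 groups, and its counts ran from 1 to 37 reads. CACNG5, with a standard deviation of 0.72, had medians of 0.792, 0.918, 1.09 and 1 CPM and counts from 0 to 19 reads. The 4 groups overlapped in both genes. The steadiest tested member was CACNG4, with a standard deviation of 0.16.

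The first comparison asked whether channel expression differed between SGA and AGA piglets. In edgeR's quasi-likelihood test with sex and 5 surrogate variables (estimated axes of hidden variation), 26 of 31 channel genes were higher in SGA, with a median log2 fold change of 0.096, against 49.2% higher and a median of -0.0023 over all tested genes. No channel gene passed the study's threshold, an adjusted p under 0.4 (Benjamini-Hochberg, over 7 contrasts together), which 0.478% of all genes passed. With limma voom the count was also 0, and with DESeq2 it was 2, CACNG7 and CACNB1, where 1.29% of all genes passed. At an unadjusted p under 0.05, 4 channel genes were higher, where 5.6% of all genes were, and 0 were lower, where 4.95% were. These 4 were CACNG7, CACNB1, CACNA1G and SCN3B. Leaving out 1 litter at a time gave 0 to 9 channel genes past the threshold, with 9 without litter HF 3, where 7.75% of all genes passed, 3 without each of litters CON 2, CON 4, CON 6 and HF 2, where 2%, 2.05%, 2.55% and 1.36% of all genes passed, and 0 without each of the other 7. By family, 8 of 9 alpha1 genes, 2 of 3 alpha2delta, 3 of 4 calcium beta, 6 of 6 gamma, 4 of 5 sodium alpha and 3 of 4 sodium beta genes were higher in SGA.

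CACNG7 (gene 100519605, chromosome 6, bases 53003529 to 53027058 of Sscrofa10.2, plus strand, 6 exon intervals) had levels of 1150, 907, 1020, 1010, 1000 and 1040 CPM in AGA CON replicates 1 to 6 and 1070, 1160, 987, 1160, 1070 and 2190 CPM in their SGA littermates. On the HF formula the AGA piglets had 1040, 970, 839, 998, 1080 and 945 CPM and their SGA littermates 1070, 949, 1100, 1130, 1220 and 1080 CPM. SGA was higher in 9 of 12 litters, and SGA CON replicate 6 was above every other library. The log2 fold change was 0.15 (SE 0.0434, adjusted p = 0.471, edgeR). Without that litter it was 0.16 (SE 0.0393) and passed the threshold, with an adjusted p of 0.256 (edgeR). In each cohort alone, fitted without surrogate variables, it was 0.09 (SE 0.0915) and 0.35 (SE 0.137).

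SCN3B (gene 100628130, chromosome 9, bases 55796544 to 55873092, minus strand) encodes a beta subunit that influences the surface level and gating of sodium channels. Its levels were 57.5, 32.5, 61.1, 70.6, 70.1 and 67.5 CPM in AGA CON and 86.9, 69.5, 87.1, 53.8, 85.8 and 109 CPM in their SGA littermates. On HF they were 60.6, 63.7, 76.1, 27.9, 47.9 and 50.7 CPM in AGA and 82.4, 84, 64.3, 65.2, 67.3 and 74.2 CPM in SGA. SGA was higher in 10 of 12 litters, with the exceptions in litters CON 4 and HF 3, and the groups overlapped. The log2 fold change was 0.23 (SE 0.0976, adjusted p = 0.68, edgeR). In each cohort alone it was 0.45 and 0.49, both fitted without surrogate variables.

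CACNA1G (gene 100513431, chromosome 12, bases 26991543 to 27052231, plus strand), the T-type gene, had 97, 60.2, 109, 118, 77.7 and 80.5 CPM in AGA CON and 112, 102, 94.1, 113, 115 and 144 CPM in their SGA littermates. On HF the values were 71.9, 90.1, 81, 71.9, 82 and 106 CPM in AGA and 101, 117, 95.3, 122, 105 and 106 CPM in SGA. All SGA values lay between 94.1 and 144 CPM, while AGA values reached down to 60.2 CPM, and SGA was higher in 10 of 12 litters. The log2 fold change was 0.20 (SE 0.0715, adjusted p = 0.585, edgeR), and 0.28 and 0.40 in each cohort alone. CACNB1 (gene 100514316, chromosome 12, bases 23491054 to 23513338, plus strand) had 165, 258 and 297 CPM as lowest, median and highest in AGA and 242, 273 and 344 CPM in SGA. Its log2 fold change was 0.10 (SE 0.0336, adjusted p = 0.56, edgeR), with SGA higher in 9 of 12 litters.

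**Figure D2:**
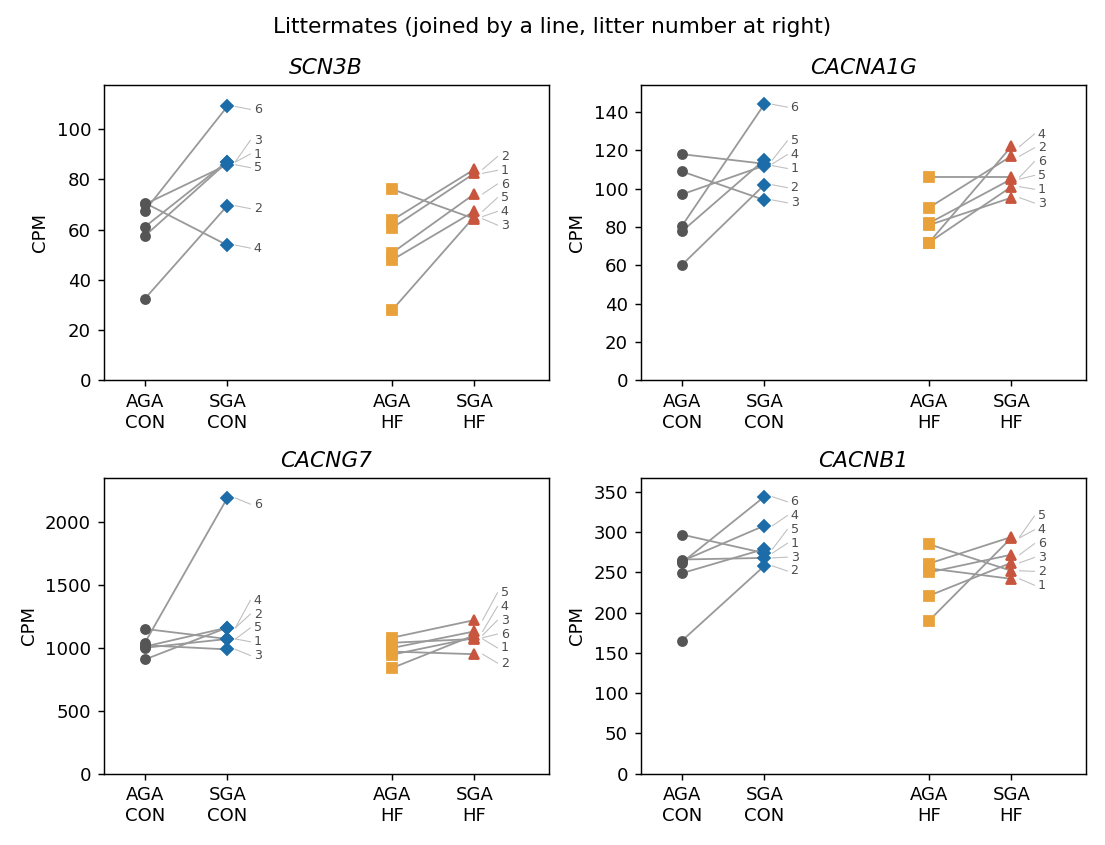
CPM (y axis, from 0) of SCN3B, CACNA1G, CACNG7 and CACNB1 in each piglet, with AGA and SGA littermates joined by a line and litter numbers at the right. SCN3B was higher in the SGA piglet in 10 of 12 litters, and SGA CON replicate 6 reached 2190 CPM of CACNG7.

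With the litter as a block in place of the surrogate variables, 28 of 31 channel genes were higher in SGA, with a median log2 fold change of 0.18 against 0.0028 over all genes, and 11 were higher at an unadjusted p under 0.05, where 6.11% of all genes were. With neither the surrogate variables nor the block the median was also 0.18, with 0.44 for SCN3B and 0.34 for CACNA1G. In that fit 0 channel genes passed the threshold, where 0.0796% of all genes did. Before adjustment 8 channel genes were below 0.05, and the share of all genes at that level was not computed. In the block fit SCN3B rose by 0.46 (SE 0.111, adjusted p = 0.211, edgeR) and CACNA1G by 0.36 (SE 0.0869, adjusted p = 0.213, edgeR), while 1.05% of all genes were called higher in this fit. Its adjusted p-values were taken over its own size and interaction contrasts, which are fewer than in the fit with surrogate variables. An exact two-sided sign-flip test over the 12 litters gave p = 0.00537 for CACNA1G, p = 0.00586 for SCN3B, p = 0.00684 for the calcium beta subunit CACNB2, p = 0.0103 for SCN2B and p = 0.0107 for CACNG7. Adjusted over all genes in this contrast, these exact values were 0.198, 0.205, 0.213, 0.235 and 0.238 in the same order. The exact p was under 0.05 for 9 channel genes, all higher in SGA, where 5.78% of all genes were higher at that level. The same 9, which also include CACNG4, CACNA2D2, CACNA1E and CACNB1, had adjusted values of 0.198 to 0.335, under the threshold of 0.4, as did 5.84% of all genes on the higher side. The smallest p that 12 litters allow is 0.000488.

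**Figure D3:**
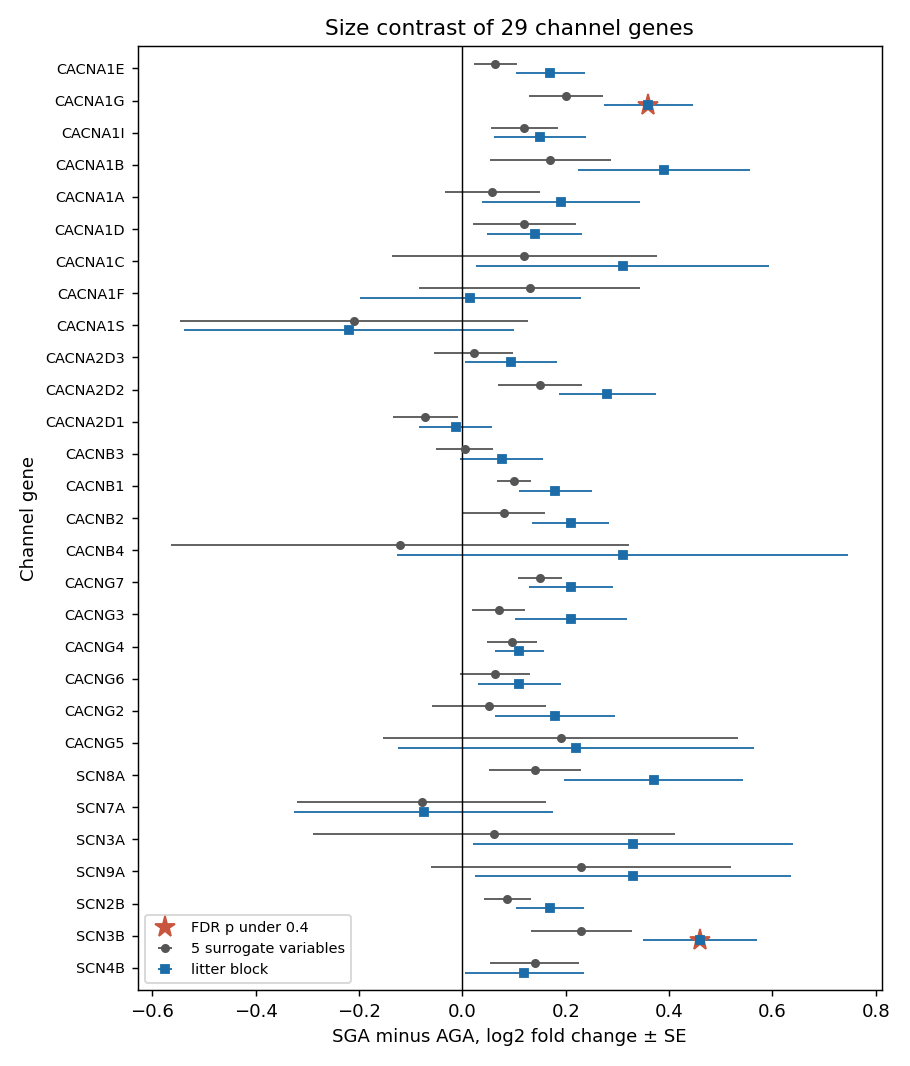
SGA minus AGA log2 fold change (x axis, bars are SE) of 29 tested channel genes, from the fit with 5 surrogate variables (circles) and the fit with the litter as a block (squares), with stars where the adjusted p was under 0.4. The squares of SCN3B at 0.46 and CACNA1G at 0.36 carry the stars.

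These littermate differences were uneven between litters. The median SGA minus AGA difference over the 31 genes was 0.56 in litter CON 2, where 29 genes were higher in the SGA piglet, and 0.53 in litter HF 4, where 27 were. These are the litters of the AGA libraries with the lowest neuron marker sums. In the other 10 litters the median ran from -0.068 to 0.27. Over all genes the median stayed between -0.023 and 0.015 in every litter. Without litters CON 2 and HF 4, 26 of 31 genes were still higher in the litter-block fit, with a median of 0.12. No channel gene was called, where 0.223% of all genes were. In this fit 5 channel genes had an unadjusted p under 0.05, and the share of all genes at that level was not computed. SCN3B then had a log2 fold change of 0.34 (SE 0.0976, adjusted p = 0.603, edgeR) and CACNA1G 0.28 (SE 0.0869, adjusted p = 0.643, edgeR). Each was higher in the SGA piglet in 8 of the 10 remaining litters, with exact sign-flip p-values of 0.0234 and 0.0215. The exact p was then 0.0273 for CACNB2, 0.0352 for CACNG4, 0.041 for SCN2B and 0.041 for CACNG7. For CACNA2D2, CACNA1E and CACNB1 it was no longer under 0.05, at 0.084, 0.113 and 0.127. The litter-block log2 fold change went from 0.17 to 0.082 for SCN2B and from 0.17 to 0.093 for CACNA1E. For CACNB1 it went from 0.18 to 0.096, and for CACNA2D2 from 0.28 to 0.23. In the fit with surrogate variables the same omission left the median at 0.085 and no call.

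**Figure D4:**
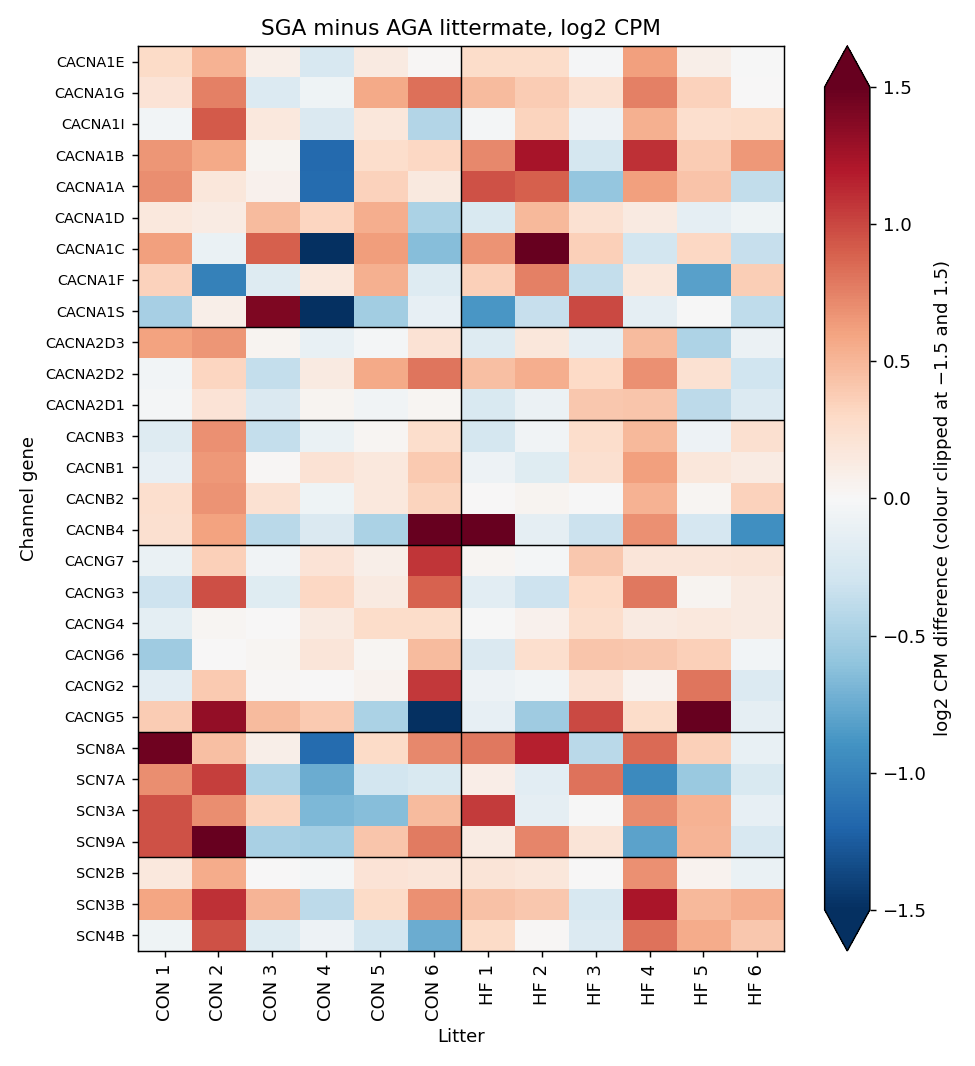
Difference in log2 CPM between the SGA and the AGA littermate (colour, red where SGA was higher, clipped at −1.5 and 1.5) for 29 channel genes in rows, by subunit family, and 12 litters in columns. Litters CON 2 and HF 4 were red in 27 and 25 of the 29 rows.

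Other cell markers differed with size too. All 6 oligodendrocyte markers were lower in SGA, with a median log2 fold change of -0.17, and -0.31 with the litter block, where CNP fell by 0.42 with an adjusted p of 0.0366, MBP by 0.32 with 0.182 and MOBP by 0.30 with 0.213 (edgeR). Their summed level was 13600 to 25000 CPM in AGA and 11500 to 22500 CPM in SGA, and was higher in the SGA piglet in 1 of 12 litters. Of the 5 detected excitatory neuron markers 3 were higher in SGA, with a median of 0.13, and 0.18 with the litter block. Their sum was higher in the SGA piglet in 10 of 12 litters. Among them CAMK2A rose by 0.13 (SE 0.0305, adjusted p = 0.308, edgeR), a call lost with the litter block (0.10, adjusted p = 0.69). Of the 8 neuron markers 5 were higher, with a median of 0.035, and 0.099 with the litter block. Of the 7 interneuron markers 3 were higher, with a median of -0.008, and 0.061 with the litter block. Of the other lists, 3 of 6 dentate granule, 2 of 6 astrocyte, 3 of 5 oligodendrocyte progenitor, 2 of 7 microglia, 3 of 4 endothelial, 2 of 4 choroid plexus, 2 of 3 thalamus and habenula, 2 of 3 striatum, 1 of 2 pituitary and 3 of 4 skeletal muscle markers tested were higher in SGA, none of them past the threshold in the fit with surrogate variables. With the litter block the progenitor marker OLIG1 fell by 0.17 (adjusted p = 0.325, edgeR) and was lower in the SGA piglet in all 12 litters. The other progenitor markers had 0.23 (CSPG4), 0.021 (OLIG2), -0.013 (PDGFRA) and -0.31 (SOX10), none past the threshold, and the list median was -0.013. OLIG1, at a mean of 651 CPM, was the largest part of the progenitor sum, which was higher in the SGA piglet in 1 of 12 litters. The pituitary markers summed to 369 CPM in SGA HF replicate 4 and to 19.2 to 37 CPM elsewhere. The part of these markers in the channel values was not tested. Channel genes were also long, with 15 of the 31 over 5000 exonic bases. Those 15 had a median log2 fold change of 0.12, against 0.016 over all genes of that length.

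Genes that work with these channels, such as ankyrins, FGF homologous factors and RIM proteins, were read from a list of 31 symbols, of which 29 were found and 26 tested. Of these, 17 were higher in SGA with a median of 0.056, against 49.2% higher over all tested genes. None passed the FDR threshold, where 0.478% of all genes did. At an unadjusted p under 0.05, 3 were higher in SGA, where 5.6% of all genes were. ANK2, an ankyrin scaffold, had a log2 fold change of 0.18 (SE 0.0476, adjusted p = 0.413, edgeR), with SGA higher in 11 of 12 litters, and it passed with the litter block at 0.21 (adjusted p = 0.387). CBARP, which binds calcium beta subunits, had 0.11 (SE 0.0394, adjusted p = 0.581, edgeR), also higher in 11 of 12 litters, and passed with the litter block at 0.21 (adjusted p = 0.346). With that block 1.05% of all genes were called higher. FGF11 had 0.17 (SE 0.0663, adjusted p = 0.629, edgeR), and higher values in 7 of 12 litters.

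The next comparison asked whether the HF formula changed channel expression. No channel gene passed the threshold for diet, where 0.159% of all genes did. In the same fit 14 of 31 were higher on HF, with a median log2 fold change of -0.0039 against 0.002 over all genes. With limma voom no channel gene passed, and with DESeq2 CACNA1E alone did, where 0.539% of all genes passed. At an unadjusted p under 0.05, 2 genes were higher on HF, CACNA1E and CACNA2D1, where 3.59% of all genes were, and 2 were lower, CACNG7 and SCN7A, where 3.5% were. Since both littermates of a pair received the same formula, the exact permutation of 6 against 6 litter means is also relevant. It gave no channel gene a p under 0.05, and the smallest p it allows is 0.00216.

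CACNA1E (gene 100511769, chromosome 9, bases 135315145 to 135473185, plus strand) had 122, 177 and 204 CPM as lowest, median and highest on CON and 127, 192 and 235 CPM on HF, with a log2 fold change of 0.15 (SE 0.0416, adjusted p = 0.433, edgeR). The difference was 0.27 in cohort 1 and -0.034 in cohort 2, and 0.0075 (SE 0.0534) without litters CON 2 and HF 4. CACNA2D1, an alpha2delta subunit that binds gabapentin, had 45.3, 55.4 and 64.7 CPM on CON and 38.7, 63.4 and 76.7 CPM on HF. Its log2 fold change was 0.16 (SE 0.0631, adjusted p = 0.643, edgeR), with 0.30 in cohort 1 and 0.032 in cohort 2. CACNG7 had a diet log2 fold change of -0.10 (SE 0.0438, adjusted p = 0.69, edgeR), which was -0.033 without litter CON 6. SCN7A had 0.606, 1.3 and 2.17 CPM on CON and 0.356, 0.954 and 1.81 CPM on HF, from 3 to 16 reads a library, and its log2 fold change was -0.64 (SE 0.251, adjusted p = 0.644, edgeR). In sums over each litter these differences were 0.12, 0.17, -0.13 and -0.41 in the same order, all with an adjusted p of 0.999.

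**Figure D5:**
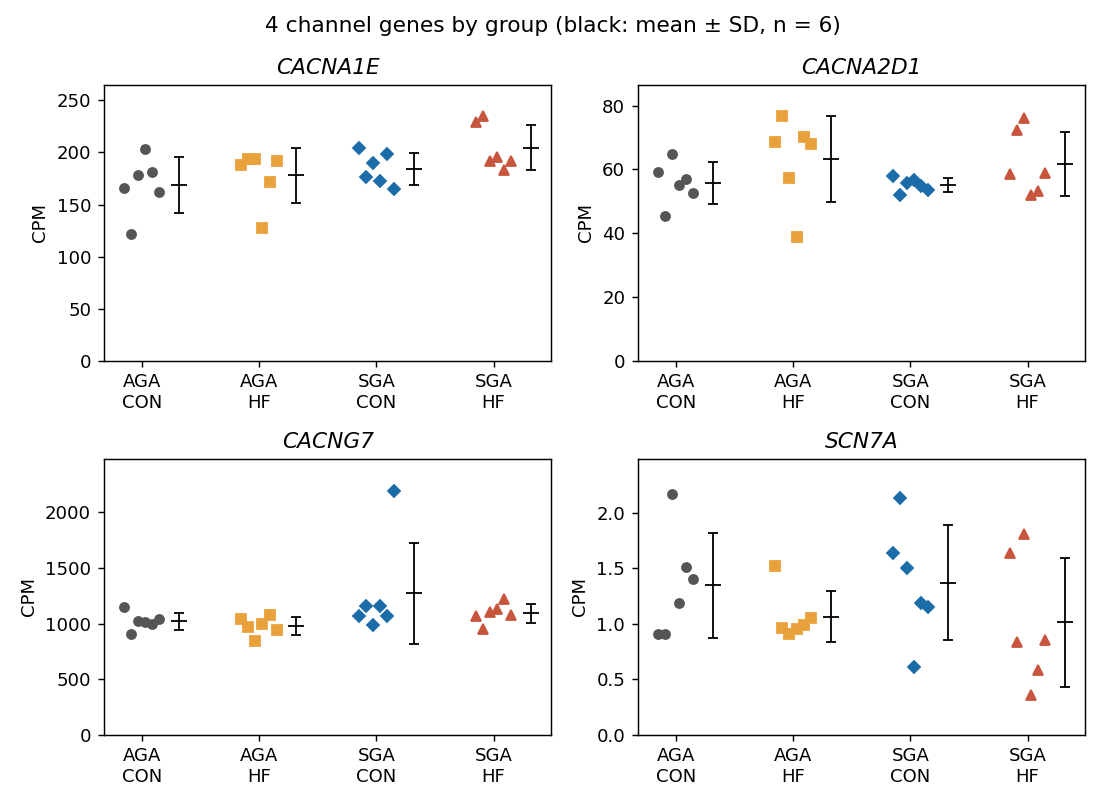
CPM (y axis, from 0) of CACNA1E, CACNA2D1, CACNG7 and SCN7A in each piglet by group, with black bars for the mean and SD of 6 piglets. In each gene the CON and HF points overlapped, and the lowest CACNA1E values were 122 CPM in AGA CON and 127 CPM in AGA HF.

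Among the 26 tested partner genes, 7 were higher on HF, with a median log2 fold change of -0.054, against 50.8% higher over all tested genes. None passed the threshold, where 0.159% of all genes did. At an unadjusted p under 0.05, 4 were lower on HF, where 3.5% of all genes were, and none were higher. These were the ankyrins ANK3 at -0.12 (SE 0.0485, adjusted p = 0.669, edgeR) and ANK2 at -0.10 (SE 0.0472, adjusted p = 0.722, edgeR), the node adhesion molecule NFASC at -0.17 (SE 0.0804, adjusted p = 0.72, edgeR) and FAM155B at -0.12 (SE 0.0581, adjusted p = 0.734, edgeR), whose product is related to an auxiliary subunit of the sodium leak channel.

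Whether the effect of size depended on the formula was tested as an interaction. No channel gene passed, where 0.049% of all genes did, and limma voom and DESeq2 gave none either. At an unadjusted p under 0.05 there was 1 higher, where 2.09% of all genes were, and 0 lower, where 1.91% were. That gene was CACNG6, a gamma subunit known from muscle calcium channels, with 44.3, 34.9, 37.1, 37, 31.7 and 38.7 CPM in AGA CON and 30.5, 35, 38, 42, 32.3 and 53.9 CPM in SGA CON. On HF its levels were 36.5, 33.5, 30.6, 32.9, 35.4 and 32.2 CPM in AGA and 31.2, 39.8, 41.1, 43.4, 45.6 and 31.2 CPM in SGA. The interaction was 0.36 (SE 0.127, adjusted p = 0.585, edgeR), and 0.17 (SE 0.16, adjusted p = 0.843) with the litter block. Within diets and sizes, no channel gene passed for SGA against AGA on CON, where 0.129% of all genes did, or on HF, where 0.288% did. None passed for HF against CON in AGA piglets, where 0.0674% did, or in SGA piglets, where 0.0919% did. At an unadjusted p under 0.05 the counts were 0, 6, 2 and 3 in these 4 contrasts, where 6.59%, 8.02%, 6.09% and 5.16% of all genes were. The smallest adjusted p of these contrasts was 0.428, for CACNG7 on HF with a log2 fold change of 0.22 (SE 0.0599, edgeR), and DESeq2 called that gene there with an adjusted p of 0.186.

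Cohort, as the labels give it, was fitted with group and sex. By cohort 2 of 31 channel genes passed the threshold, both higher in cohort 2, where 12.8% of all genes passed. Of these, CACNA2D2 was higher by 0.22 (SE 0.103, adjusted p = 0.358, edgeR), and the other is not reported here. CACNA2D2 had 40.2, 53 and 64.4 CPM as lowest, median and highest in cohort 1 and 44, 61.3 and 84.5 CPM in cohort 2, and its highest value was from SGA CON replicate 6. Between the sexes no channel gene was called, where 0.368% of all genes were, and none had an unadjusted p under 0.05.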

How the data were processed

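Hippocampal RNA-seq of 24 piglets was read from 1 table a library. The authors deposited raw read counts per Entrez gene, made per their methods and processing notes with bcl2fastq 2.17.1.14, Trimmomatic 0.33, STAR 2.5.2a and strand-aware featureCounts of Subread 1.5.0 on Sscrofa10.2. They were not normalized and replicates were not pooled. Gene names came from Sscrofa11.1 tables, used for names only. Reads with no gene identifier, 0.613% to 1.62% of a library, were left out. Total counts ran from 6017336 to 9284355 a library.

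Genes with at least 1 CPM in 3 libraries (16326) were kept, library sizes and TMM factors were recomputed, and edgeR 4.0.16 (R 4.3.3) quasi-likelihood fits held group, sex and 5 surrogate variables from sva 3.50.0. P-values were adjusted by Benjamini-Hochberg over 7 contrasts together (114282 tests), with the study's threshold of 0.4. Litter-block fits were adjusted over size, interaction and size on each diet together, so over fewer tests. Litter sums, exact tests, cohort and sex were each adjusted over the genes of that term alone. CPM were TMM-scaled, and RPKM were these per kilobase of exon. Log2 values used a prior count of 2. Littermates were paired by the labels. Their deviations from group means correlated by 0.154 on average (0.0144 to 0.329, n = 12), against 0.0314 between piglets from different litters that shared diet and cohort. Size was therefore also fitted with the litter as a block and tested by exact sign flips (4096), and diet by exact permutation of litter means (924). DESeq2 1.42.0, limma 3.58.1 voom, other filters, cohorts apart and leaving out litters were alternatives. The fit was tested on simulated data. Fits on single piglets without the block took piglets as independent, also for diet. The block fit and the sign flips rested on differences within litters. Litter sums and permuted litter means rested on variation between litters. Count limits cover counting error only.

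Genes were named if they had an unadjusted p under 0.05, led their family in RPKM, varied most, differed by cohort or were channel partners. The channel genes and all lists were chosen with earlier results of these data known. SCN2A and CACNG8 were not analysed here, and some results within these rules are not reported here.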

Additional observations from a re-analysis of the deposited data

Results flagged for a closer look

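In each of 116 sets of 6 libraries (29 channel genes in 4 groups) the highest and the lowest library were compared with their neighbours, and 18 lay beyond Dixon's critical gap for 6 values. Chance does this in about 1 in 20 such sets. Several of the 18 came from the same libraries. AGA CON replicate 2 was low in 8 genes, with 140 CPM of CACNG3, 64.7 CPM of CACNA1I, 11.7 CPM of SCN4B, 224 CPM of SCN2B, 32.5 CPM of SCN3B, 12 CPM of CACNB2, 165 CPM of CACNB1 and 13.7 CPM of CACNA2D3. AGA HF replicate 4 was low in SCN2B at 212 CPM and in CACNA1E at 127 CPM. SGA CON replicate 6 was high in CACNG7 at 2190 CPM and in CACNG3 at 578 CPM. The first pair of libraries had the lowest neuron marker sums, 4070 and 4860 CPM, and the part of this in their channel levels was not tested.

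The others were single values. CACNB3 was low in SGA CON replicate 3 at 248 CPM. CACNA1S was high in SGA HF replicate 3 at 1.81 CPM. SCN3A was high in AGA CON replicate 5 at 1.16 CPM and low in SGA CON replicate 4 at 0.152 CPM. SCN9A was low in SGA HF replicate 4 at 0.119 CPM, and SCN7A was high in AGA HF replicate 1 at 1.52 CPM. The SCN3A and SCN9A lows lay below the level of 3 reads, 0.323 to 0.499 CPM.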

How the results depend on the processing

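The number of channel genes past the FDR threshold for size, 0 as reported, was 4 with each contrast adjusted on its own (7.35% of all genes passed), 2 with DESeq2 (1.29%), 2 with the litter as replicate block (2.57%), 1 without a filter on low counts (0.452%) and 1 with library sizes over all listed genes (0.876%), an alternative chosen after seeing the data, against 0.478% as reported. For SGA against AGA on HF it was 1 with each of these apart from the block. Of all genes 1.44% passed there with each contrast adjusted on its own and 0.827% with DESeq2. Without the filter 0.255% passed, and with those library sizes 0.594%. For diet the number of channel genes was 1 with DESeq2 (0.539% of all genes) and 1 with library sizes over all listed genes (0.294%). At an unadjusted p under 0.05 the size count, 4 as reported, was 9 without the filter, 8 without surrogate variables, 8 with sex and cohort in their place and 11 with the block. Of all genes, 5.6% were higher and 4.95% lower at that level as reported, and 6.11% were higher with the block. For the other fits this share was not computed, so their counts cannot be told from a shift of all genes. The diet count, 4 as reported, was 1 in both fits without surrogate variables and 1 with litter sums. The interaction count, 1 as reported, was 0 in both of those fits and 0 with the block, and 2 in each cohort alone and 2 without litters CON 2 and HF 4, also chosen after seeing the data. In cohort 2 alone the diet median was -0.13 and the CACNA1E diet difference was -0.034, the opposite direction. The number of channel genes called by cohort was 0 at an FDR p under 0.05. The cause of these shifts was not tested.

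Leaving out 1 litter at a time, the size count ran from 0 to 9 past the FDR threshold and from 3 to 13 at an unadjusted p under 0.05. For diet these counts ran from 0 to 2 and from 1 to 5, and for the interaction from 0 to 1 and from 0 to 4. The median ran from 0.078 to 0.14 for size, from -0.066 to 0.018 for diet and from -0.029 to 0.13 for the interaction, and 6 to 10 genes had an exact sign-flip p under 0.05. The share of all genes under 0.05, before adjustment or in the exact test, was not computed with litters left out. Without litter HF 3, SCN3B (-0.23) and CACNA1I (-0.21) passed for diet, where 4.66% of all genes did. In the same fit CACNG6 (0.37) passed for the interaction, where 2.05% of all genes did. CACNA1I (-0.26) passed for diet without litter CON 2 (1.46% of all genes), and CACNA1E (0.18) without litter HF 1 (0.173%). Genes at a few reads a library, such as CACNB4, SCN3A, SCN9A and CACNA1S, were limited by depth.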

Other observations

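Some channel genes moved together from litter to litter, a pattern chosen after its values were seen and given as a description. The SGA minus AGA difference of SCN8A had the same sign as those of CACNA1A and CACNA1E in 12 of 12 litters. The CACNA1E difference was only -0.0021 in litter HF 6. SCN8A, CACNA1A and CACNA1B had 1 sign in 11 of 12. Among all tested genes 0.257% shared the sign of SCN8A in 12 litters. In 11 litters 1.38% did, and 4 channel genes, CACNA1B among them. In litter CON 4 the differences in log2 CPM were -1.16 for SCN8A, -1.15 for CACNA1A, -1.17 for CACNA1B and -1.51 for CACNA1C, so the SGA piglet was the lower one in all 4 genes.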
